A study of Oncorhynchus mykiss with 6 samples.

Results

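The miR-462 and miR-731 entries were examined in small RNA from the dorsal skin of female rainbow trout, taken at 12 months post hatching. The members were every entry of the deposited miRNA table named miR-462 or miR-731, with all arms, paralogue letters and length variants, and 10 of 1426 entries met this rule, 6 of miR-462 and 4 of miR-731. The groups were the yellow mutant (YR_S), which the study describes as lacking melanocytes and holding fewer xanthophores, and the wild type with dark skin (WR_S), with 3 libraries in each, 1 per dorsal skin. All fish shared 1 pond with natural flowing water, and neither group received a treatment or a pathogen. The study asked whether RNA levels that bear on skin immunity differed between the groups.

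MiR-462 and miR-731 are made from neighbouring hairpins of a single cluster known from bony fishes, and they have been proposed as the fish counterparts of the mammalian pair miR-191 and miR-425. In rainbow trout both are known as miRNAs induced by rhabdovirus infection and by interferon, and in zebrafish the cluster is also known to respond to low oxygen. A hairpin gives a 5p and a 3p strand, the strand loaded into Argonaute guides it to messenger RNAs, and bases 2 to 8 of that strand (the seed) do most of the pairing with targets. Entries are named by the database species whose sequence matched (ssa, Atlantic salmon; ola, medaka; mze and abu, cichlids), and suffixes such as R+3 give the bases added or missing at an end. Genome positions are not given here.

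The main sequences of each arm are shown first, because the 5p strands of miR-462a and miR-462b carried most of the reads and differ at a single base. They are written 5′ to 3′ with T for U, as deposited, and capitals mark the seed.
ssa-miR-462a-5p: tAACGGAAcccataatgcagctg
ssa-miR-462b-5p: tAACGGAAcccataaagcagctg
ssa-miR-462a-3p: cCTGGATGtgggttccgtct
ssa-miR-462b-3p: gCTGGATGtgagctccgtttcc
ssa-miR-731-5p: aATGACACgttttctcccggatt
ssa-miR-731-3p: cACCGGGAatttcgtgtcagca

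Counted from 1 at the 5′ end of miR-462a, the 5p strands of the paralogues differed by T16A, outside the seed. The 3p strands differed by C1G, G11A, T13C and C19T, none of them within the seed, and the 3p strand of miR-462b was 2 bases longer. Both paralogues therefore had the seed AACGGAA on the 5p strand and CTGGATG on the 3p strand, while miR-731 had ATGACAC and ACCGGGA. When the strands were paired computationally, miR-462a-5p and miR-462a-3p formed 16 base pairs at -24.2 kcal per mol and the strands of miR-462b formed 15 at -16.3 kcal per mol. The strands of miR-731 formed 13 at -22.3 kcal per mol, whereas miR-731-5p and miR-462a-3p formed 9 at -8.0 kcal per mol. Strands of the 2 paralogues also paired with each other, miR-462b-5p with miR-462a-3p by 15 base pairs at -22.9 kcal per mol and miR-462a-5p with miR-462b-3p by 16 at -17.6 kcal per mol, both at a lower energy than the strands of miR-462b.

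The other 4 members were variants of these strands, shown because a base gained or lost at the 5′ end moves the seed.
ola-miR-462_R+5_1ss1GC: cTAACGGAacccataatgcagctg
ola-miR-462_L-1R+7: tAACGGAAcccataatgcagctgaa
mze-miR-731_R+3: aATGACACgttttctcccggattgct
abu-miR-731-3p_L-1R+1_1ss22CA: aCCGGGAAtttcgtgtcagcaa
The ola-miR-462_R+5_1ss1GC entry was miR-462a-5p with 1 more base (C) at its 5′ end, so that its seed read TAACGGA. The abu entry started 1 base later than ssa-miR-731-3p and ended 1 base later, with CCGGGAA as its seed. The ola-miR-462_L-1R+7 and mze entries kept the 5′ end and carried 2 and 3 more bases at the 3′ end. No member sequence stood in another entry, no member had the counts of another entry in all libraries, and all counts of the members were whole (tolerance 1e-06), against 36.8% of all values above 0 in the table that were not.

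In the table, 1 entry outside the members had the seed of a member strand. It was the proposed mammalian counterpart aca-miR-191-5p, named after a lizard sequence.
aca-miR-191-5p: cAACGGAAtcccaaaagcagctg
It differed from miR-462b-5p by T1C, C9T, A12C and T13A, and from miR-462a-5p by these and T16A. It was at 0 in every YR_S library and in WR_S replicates 2 and 3, and held 10.5 counts in WR_S replicate 1. After rounding to whole counts this was 1.93 CPM (counts scaled to a common library size). No entry was named miR-425, the proposed counterpart of miR-731.

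The libraries held 1442631, 4375641 and 4388665 counts in YR_S replicates 1, 2 and 3, and 5089802, 4477917 and 4567996 counts in WR_S replicates 1, 2 and 3. A count of 3, used as the floor of detection, stood for 0.723 to 1.95 CPM in YR_S, highest in replicate 1, and for 0.578 to 0.637 CPM in WR_S. Values below are given in the order of replicates 1, 2 and 3, levels are CPM scaled by TMM, means carry the SD over 3 libraries, and intervals of shares and floors cover counting error only. Levels are per entry, whereas sums over families add all entries, including those with the same counts under another name. Epidermal markers (miR-203, miR-205, miR-200, miR-429 and miR-141) summed to 23182 to 35118 CPM in YR_S and 26354 to 36673 CPM in WR_S. In WR_S replicate 3 the liver miRNA miR-122 summed to 3404 CPM, against 5.21 to 51.0 CPM in YR_S and 18.9 to 19.5 CPM in the other WR_S libraries. This sum adds 2 entries with the same levels, each at 1702 CPM in WR_S replicate 3. Muscle miRNAs (miR-1, miR-133, miR-206 and miR-499) summed to 12616 CPM in that library, the highest of the 6 libraries. The group comparison of the arms is therefore also given without that library.

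Together the members were abundant in every skin library, and their levels spread more widely within each group than the group means lay apart. Summed over all entries, they reached 18740, 6197 and 7739 CPM in YR_S skin, against 17957, 16201 and 4380 CPM in WR_S. The means were 10892 ± 6840 CPM in YR_S and 12846 ± 7384 CPM in WR_S (SD, n = 3 each), and the highest library was 3.02 times the lowest in YR_S, 4.10 times in WR_S and 4.28 times over all 6. They made up 1.996%, 0.555% and 0.731% of the counts in YR_S, and 1.83%, 1.70% and 0.453% in WR_S. High and low libraries thus occurred in both groups, with YR_S replicate 1 and WR_S replicates 1 and 2 high, and YR_S replicates 2 and 3 and WR_S replicate 3 low.

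The 5p strand of miR-462a, the most abundant member, stood at 10918, 3524 and 4721 CPM in YR_S skin, against 11761, 10603 and 2616 CPM in WR_S. It was among the abundant miRNAs of the skin, ranked 18, 56 and 40 among the entries in the YR_S libraries and 18, 21 and 67 in the WR_S libraries. The groups overlapped, and the means were 6388 ± 3969 CPM in YR_S and 8327 ± 4979 CPM in WR_S (SD, n = 3 each). MiR-462b-5p was at 2916, 1095 and 1429 CPM in YR_S skin, against 1968, 2022 and 812 CPM in WR_S, and was the only tested member with a fitted fold change above 1 in YR_S. Its YR_S replicate 1 was above every WR_S library and its WR_S replicate 3 was below every YR_S library.

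MiR-731-5p, with the ATGACAC seed, was at 3866, 1264 and 1158 CPM in YR_S skin, against 3306, 2665 and 707 CPM in WR_S. Its levels overlapped and its means were close, 2096 ± 1534 CPM in YR_S and 2226 ± 1354 CPM in WR_S. MiR-731-3p was at 909, 295 and 393 CPM in YR_S skin, against 694, 744 and 220 CPM in WR_S. In both strands of miR-731 the highest level was in YR_S replicate 1 and the lowest in WR_S replicate 3.

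The 3p strands of miR-462, which are the minor strands of the hairpin, were scarce, and they were the most uneven of the members above 0 in every library. MiR-462a-3p was at 77.5, 2.81 and 20.01 CPM in YR_S (119, 11 and 83 counts), against 168, 109 and 16.9 CPM in WR_S (870, 511 and 80 counts). The highest of its YR_S libraries was 27.6 times the lowest, and the highest of its WR_S libraries 9.89 times the lowest. MiR-462b-3p was at 11.7, 2.04 and 5.06 CPM in YR_S (18, 8 and 21 counts), against 17.9, 16.1 and 2.54 CPM in WR_S (93, 76 and 12 counts). Both 3p strands were lowest in YR_S replicate 2, unlike the 5p strands, which were lowest in WR_S replicate 3.

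Of the variants, only ola-miR-462_R+5_1ss1GC was above 0 in every library, at 37.1, 10.5 and 11.8 CPM in YR_S skin, against 29.9, 26.5 and 5.08 CPM in WR_S. It made up 0.2496% to 0.339% of the reads of itself and miR-462a-5p in YR_S, and 0.194% to 0.253% in WR_S, so the shifted seed belonged to a small part of the strand in both groups. The abu-miR-731-3p variant held 8, 7 and 4 counts in YR_S and 25, 35 and 0 counts in WR_S. The mze-miR-731 variant held 0, 7 and 0 counts in YR_S and 38, 27 and 0 counts in WR_S. The ola-miR-462_L-1R+7 variant was at 0 in every YR_S library and held 4, 11 and 0 counts in WR_S. Its WR_S mean of 1.04 CPM was under the mean YR_S floor of 1.15 CPM. By library that floor was 1.95, 0.765 and 0.723 CPM, so the WR_S mean was under it in YR_S replicate 1 alone. This variant was above 0 in 2 libraries and was the only member not tested, so no difference is read from its absence in YR_S.

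**Figure D1:**
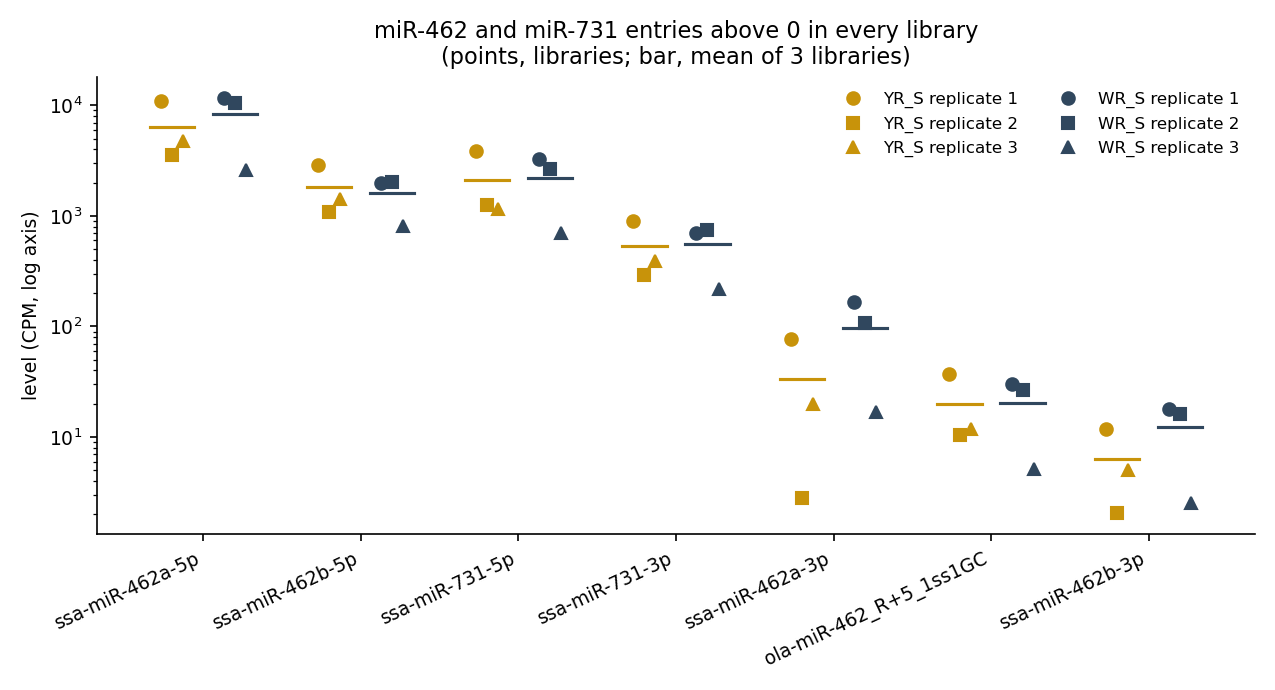
Levels (CPM, log axis) of the 7 members above 0 in every library, one point per library with the replicate number as its shape, and a bar for the mean of 3 libraries. In each of them the YR_S and WR_S points overlap, and WR_S replicate 3 is the lowest library in 5 of the 7 and YR_S replicate 2 in the other 2.

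The comparison of YR_S with WR_S found no member that differed beyond the spread between libraries. With edgeR's quasi-likelihood test, 0 of the 9 members tested had an adjusted p below 0.05, as had 0% of all 1085 entries tested. The unadjusted p was below 0.05 for 0 of 9 members, against 10.4% of all entries. The study's thresholds were a change of at least 1 on the log2 scale and an unadjusted p below 0.05. In edgeR 0 of 9 members passed them, against 8.2% of all entries. The study names DESeq2 for its own calls, so this share is not the study's count. In 0 of 9 members did the libraries of the groups not overlap, against 17.2% of all entries. DESeq2, the alternative test, called 0 of 9 members at an adjusted p below 0.05, against 3.32% of all entries, and gave 0 members an unadjusted p below 0.05, against 10.6% of all entries.

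Fitted fold changes of YR_S over WR_S were below 1 for 8 of the 9 members, against 571 of all 1085 entries tested. Their median was -0.38 on the log2 scale, against -0.03 over all entries tested. For miR-731-5p, miR-731-3p and ola-miR-462_R+5_1ss1GC the sign changed when single libraries were left out. So did that of miR-462b-5p, the member above 1, at -0.28 without WR_S replicate 3 and -0.43 without YR_S replicate 1. The members share libraries and, within an arm, a hairpin, so they do not count as separate observations. For miR-462a-5p the log2 fold change was -0.38 ± 0.59 (SE), with a 95% interval of -1.74 to 0.97 and an adjusted p of 0.895 (edgeR). For miR-462b-5p it was 0.18 ± 0.45, with an interval of -0.86 to 1.22. Both intervals include no change as well as differences of more than 1.5-fold in either direction.

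MiR-731-5p had a log2 fold change of -0.09 ± 0.63 with an interval of -1.53 to 1.36, and miR-731-3p one of -0.06 ± 0.54, both with an adjusted p of 0.987 (edgeR). MiR-462a-3p had the second largest change of the members, -1.59 ± 1.10, with an interval of -4.11 to 0.94 and an adjusted p of 0.738 (edgeR). Only the mze-miR-731 variant had a larger one, -2.63 ± 1.61, which rested on 7 counts in YR_S. MiR-462b-3p was at -1.04 ± 0.83, and these 3 were the members with a change of at least 1 on the log2 scale. None of the 3 passed the test. Leaving out each library in turn, the log2 fold change ranged from -3.13 to -0.95 for miR-462a-3p, from -1.84 to -0.60 for miR-462b-3p and from -1.10 to -0.07 for miR-462a-5p. The lowest values were those without YR_S replicate 1.

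Because each arm was held by more than 1 entry, each arm was also summed and tested in place of its entries. The miR-462-5p sum was 13871, 4629 and 6162 CPM in YR_S skin, against 13759, 12654 and 3433 CPM in WR_S. Its fold was 0.8003, with a 95% interval of 0.316 to 2.03 and an adjusted p of 0.920 (edgeR). For miR-731-5p the fold was 0.908 with an interval of 0.324 to 2.55, and for miR-731-3p it was 0.930 with an interval of 0.376 to 2.30. A difference of 2-fold in either direction was thus within the intervals of these strands in this fit. Without WR_S replicate 3 the log2 fold changes were -0.82 for miR-462-5p, -0.66 for miR-731-5p and -0.58 for miR-731-3p, with adjusted p of 0.710 to 0.809 (edgeR).

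The miR-462-3p sum was 89.2, 4.85 and 25.1 CPM in YR_S skin, against 185, 125 and 19.5 CPM in WR_S. Its fold of 0.347 had the widest interval of the arms, 0.0644 to 1.87, with an adjusted p of 0.715 (edgeR). Without WR_S replicate 3 the log2 fold change of this sum was -2.15, against -1.53 with all libraries, and without YR_S replicate 1 it was -2.91. In these fits the unadjusted p was 0.042 and 0.039 and the adjusted p 0.469 and 0.370 (edgeR's quasi-likelihood test).

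The same libraries set the count of members at the study's thresholds. Without WR_S replicate 3 it was 3 of 9, namely mze-miR-731_R+3, miR-462a-3p and miR-462b-3p, against 7.59% of all entries tested in that fit. Without YR_S replicate 1 it was 1 of 9, miR-462a-3p, against 9.7% of all entries. All of these were lower in YR_S, and none had an adjusted p below 0.05. YR_S replicate 1 was the library with the fewest counts, and it held the highest level of 4 of the 7 members above 0 in every library. The part of depth in this was not tested.

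**Figure D2:**
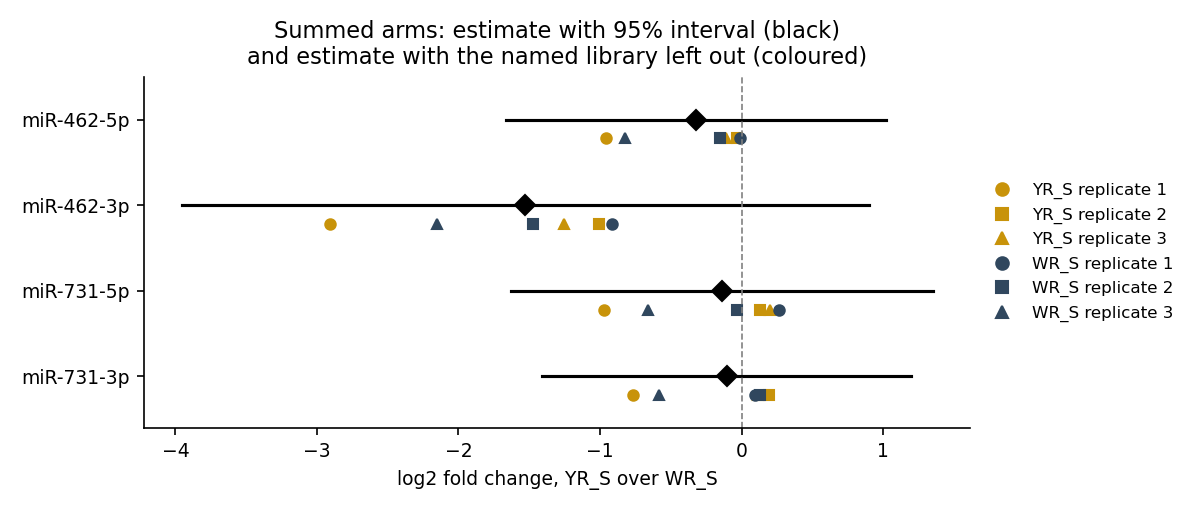
Log2 fold changes of YR_S over WR_S for the summed arms, with black diamonds and lines for the estimate and its 95% interval and coloured points for the estimate without the named library. All 4 intervals cross 0, and the estimates without YR_S replicate 1 and without WR_S replicate 3 lie furthest to the left for every arm.

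Ratios of reads within a library need no scaling between libraries, and 7 of them were compared between the groups by two-sided exact permutation tests, in which 3 libraries against 3 allow no p below 0.1. For miR-462, 156, 955 and 246 reads of the 5p arm were found for each 3p read in YR_S, against 74.2, 101 and 176 in WR_S. On the log2 scale this ratio was 8.37 ± 1.36 in YR_S and 6.78 ± 0.63 in WR_S, a difference of 1.59 (exact p = 0.2, adjusted over the 7 ratios 0.56). The groups overlapped, since WR_S replicate 3 was above YR_S replicate 1. Without YR_S replicate 2 the difference was 0.83.

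MiR-731 used its strands far less unevenly, with 4.23, 4.27 and 2.94 reads of the 5p arm for each 3p read in YR_S, against 4.74, 3.55 and 3.21 in WR_S. The log2 ratio differed by -0.01 between the groups (exact p = 1). MiR-731-3p made up 19.0%, 18.9% and 25.3% of the reads of its main strands in YR_S, and 17.4%, 21.8% and 23.8% in WR_S. MiR-462a-3p made up 0.704%, 0.0795% and 0.422% of the reads of its main strands in YR_S, and 1.40%, 1.01% and 0.644% in WR_S. In YR_S replicate 2 this share had a 95% Wilson interval of 0.0444% to 0.142%, below the intervals of the other 5 libraries.

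The share of miR-462b among the 5p reads of both paralogues, which differ at position 16, was 21.1%, 23.7% and 23.2% in YR_S, against 14.3%, 16.0% and 23.7% in WR_S. WR_S replicates 1 and 2 were lower than the YR_S libraries, and WR_S replicate 3 was at the top of their range. These counts correspond to 3.74, 3.22 and 3.30 reads of miR-462a-5p for each read of miR-462b-5p in YR_S, and to 5.98, 5.24 and 3.22 in WR_S. The paralogue shares were set out after their values had been seen. Nearly the same quantity was tested as the share of the main entry in its arm, in which miR-462a-5p took 77.1% ± 1.38 of the miR-462-5p reads in YR_S and 81.8% ± 4.95 in WR_S (exact p = 0.3, adjusted 0.56). This difference of -4.67 percentage points was -2.85 without WR_S replicate 1 and -7.49 without WR_S replicate 3.

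On the 3p arm, miR-462a-3p held 86.9%, 57.9% and 79.8% of the miR-462-3p reads in YR_S, against 90.3%, 87.1% and 87.0% in WR_S. The groups did not overlap, although YR_S replicate 1 and WR_S replicate 3 were nearly equal, and the difference of -13.3 percentage points had an exact p of 0.1, the smallest this design allows, and 0.56 adjusted over the 7 ratios. It was -4.78 points without YR_S replicate 2, which held 19 reads of this arm, against 92 to 963 in WR_S and 104 and 137 in the other YR_S libraries. In miR-731, the main entries took at least 99.0% of the reads of their arms in every library, and the shares of miR-731-5p and miR-731-3p differed by 0.10 and 0.09 percentage points (exact p = 0.4 and 0.8, adjusted 0.56 and 0.933).

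**Figure D3:**
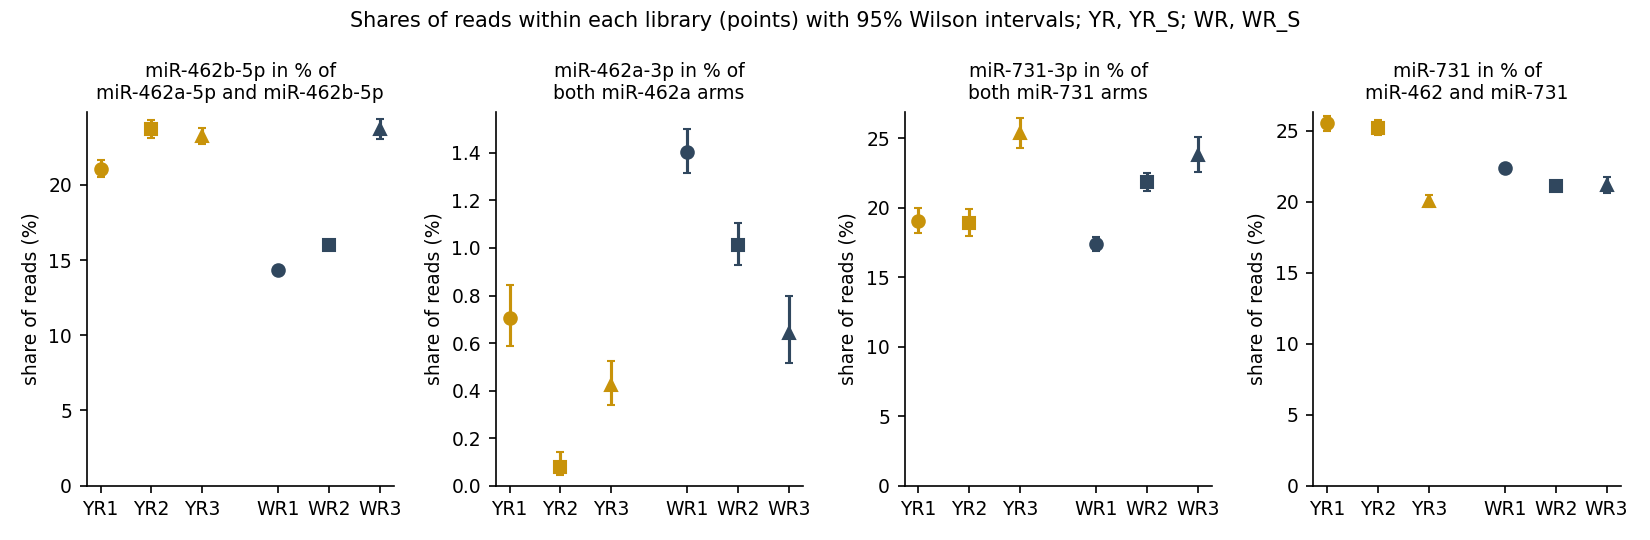
Shares of reads within each library (percent) for miR-462b-5p, miR-462a-3p, miR-731-3p and all miR-731, with points for libraries and bars for 95% Wilson intervals, which cover counting error only. The miR-462b-5p share is lowest in WR_S replicates 1 and 2, and the miR-462a-3p share is lowest in YR_S replicate 2.

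MiR-462 and miR-731, the neighbours in the cluster, varied together over the libraries. There were 2.92, 2.97 and 3.99 miR-462 reads for each miR-731 read in YR_S, against 3.48, 3.73 and 3.72 in WR_S. This ratio spanned less than the level of either miRNA, which changed 4.04-fold for miR-462 and 5.15-fold for miR-731 between the lowest and the highest library. The log2 ratio of miR-731 to miR-462 was -1.70 ± 0.25 in YR_S and -1.86 ± 0.06 in WR_S, and the difference of 0.16 was within the spread (exact p = 0.4, adjusted 0.56).

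To show how uneven the members were, the SD of log2(CPM + 1) within groups was compared with that of other entries above a minimum mean level. The entries were not otherwise matched for level, and names that held the same levels were counted separately. Among the 100 tested entries with a mean of at least 1000 CPM, whose median SD was 0.294, miR-731-5p had the largest at 1.09 and 0 entries exceeded it. MiR-462a-5p was at 1.04, exceeded by 2 entries, miR-731-5p and ssa-miR-1-3p, a muscle miRNA. MiR-462b-5p was at 0.739, exceeded by 5 entries. These 3 strands come from 1 cluster and share libraries, so they are not separate observations.

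Among the 492 tested entries with a mean of at least 10 CPM, whose median SD was 0.372, miR-462a-3p was at 1.97 and 4 entries exceeded it. The ola-miR-462_R+5_1ss1GC variant was at 1.15 with 25 entries above it, and miR-731-3p at 0.915 with 54 above it. All members of at least 10 CPM thus lay above the median of the entries compared.

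**Figure D4:**
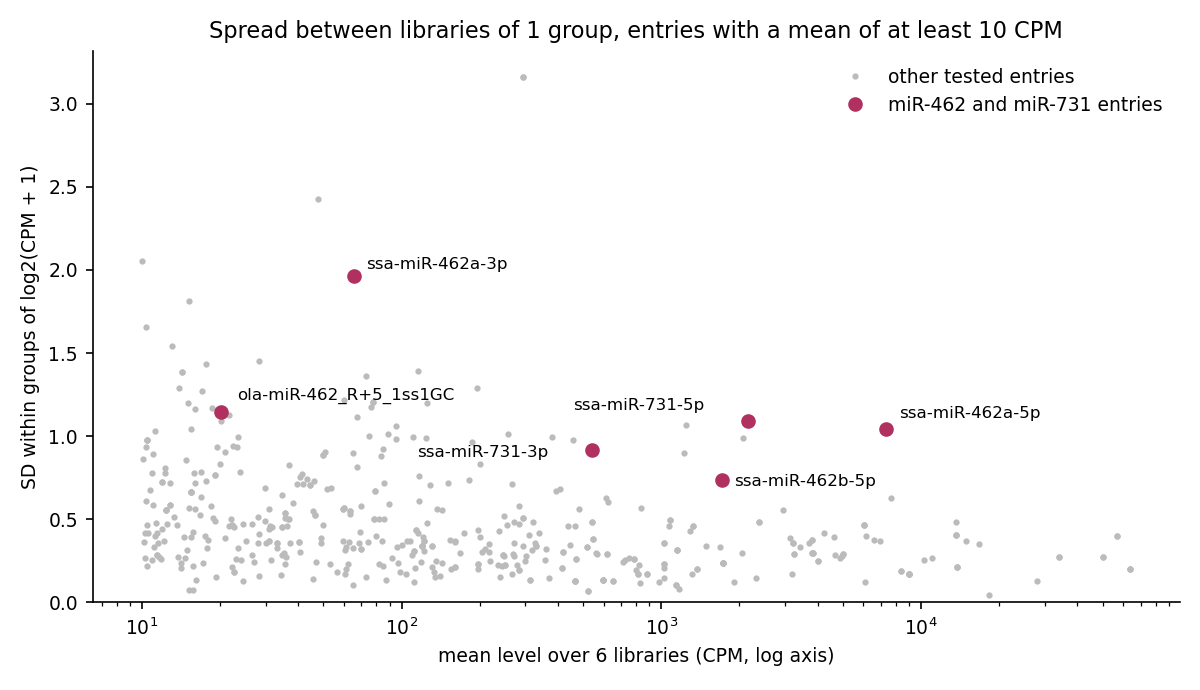
SD of log2(CPM + 1) within groups against the mean level over 6 libraries (CPM, log axis), for tested entries with a mean of at least 10 CPM. The 6 members of that abundance lie above most other entries, and miR-731-5p and miR-462a-5p are among the most uneven of the abundant ones.

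The entries most like the cluster were found by the root mean square difference of their log2(CPM + 1) profiles over the 6 libraries, each profile centred on its mean. MiR-462 and miR-731, each summed, differed from each other by 0.170, whereas the median of 486 other entries was 0.926 from miR-462 and 0.951 from miR-731. The nearest entry to miR-462 was ssa-miR-21a-3p, the minor strand of the inflammation-associated miR-21, at 0.422. It was at 21.5, 6.89 and 9.89 CPM in YR_S skin, against 31.8, 23.6 and 12.1 CPM in WR_S. Its highest and lowest libraries were WR_S replicate 1 and YR_S replicate 2, as in both 3p strands of miR-462.

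The next nearest to miR-462, at 0.471, and the nearest to miR-731, at 0.428, was a variant of miR-146, a miRNA known to restrain NF-kB signalling in mammals. Its sequence and counts stood under the names gmo-miR-146-5p_L+1 and ola-miR-146a-5p_L+1R-2, so these are 1 observation. Under each name it was at 60.5, 52.5 and 32.8 CPM in YR_S skin, against 81.3, 56.1 and 16.5 CPM in WR_S. The third for miR-731 was gga-miR-222b-3p_R-1, at 0.459, with 117, 60.4 and 56.9 CPM in YR_S and 67.6, 81.6 and 36.6 CPM in WR_S. All of these were lowest in WR_S replicate 3 except ssa-miR-21a-3p. With 6 libraries and 486 entries searched, such likeness is a description.

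Other immune miRNAs were taken as a list of families (miR-142, miR-146, miR-150, miR-155, miR-181, miR-21 and miR-223), which gave 70 entries and 63 tested. With edgeR's quasi-likelihood test 0 of 63 had an adjusted p below 0.05. An unadjusted p below 0.05 was found for 3 of 63 (2 higher and 1 lower in YR_S), against 10.4% of all entries. The study's thresholds were passed by 1 of 63, lower in YR_S, against 8.2% of all entries. DESeq2 and limma also called 0 at an adjusted p below 0.05. Each gave 1 an unadjusted p below 0.05, against 10.6% of all entries in DESeq2 and 129 of 1085 in limma. Their median log2 fold change was -0.08, against -0.03 over all entries. The most abundant were miR-21-5p, which stood under the names tni-miR-21 and ssa-miR-21b-5p with the same counts, and ssa-miR-146a-5p. Under each name, miR-21-5p was at 49960, 62112 and 47434 CPM in YR_S skin, against 64464, 78085 and 38703 CPM in WR_S. The 5p strand of miR-146a was at 16486, 15118 and 11606 CPM in YR_S skin, against 15411, 15880 and 7346 CPM in WR_S.

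Both of these were lowest in WR_S replicate 3, as the 5p strands of the cluster were, over a narrower range of 2.02-fold and 2.24-fold among the 6 libraries. Their log2 fold changes were -0.18 ± 0.27 and 0.16 ± 0.31, with adjusted p of 0.888 and 0.934 (edgeR). MiR-155, which is known to be induced in activated leukocytes, summed to 59.9, 27.5 and 42.2 CPM in YR_S skin, against 75.1, 170 and 32.6 CPM in WR_S. Its lowest library was YR_S replicate 2 and its highest WR_S replicate 2.

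MiR-210, the best known miRNA of the response to low oxygen, was listed beside the cluster because zebrafish miR-462 and miR-731 respond to it. Its 7 entries were all tested and 0 passed an unadjusted or adjusted p of 0.05 in edgeR's quasi-likelihood test, in DESeq2 or in limma. Their sum was 1354, 1735 and 1918 CPM in YR_S skin, against 1478, 1378 and 1531 CPM in WR_S. The main entry, ssa-miR-210-5p, had means of 1118 ± 223.5 CPM in YR_S fish and 934 ± 43.8 CPM in WR_S fish, and its log2 fold change was 0.26 ± 0.21 (adjusted p = 0.834, edgeR). ssa-miR-210-3p, whose sequence and counts also stood under ccr-miR-210, had means under each name of 257 ± 48.6 CPM in YR_S fish and 244 ± 26.2 CPM in WR_S fish. In contrast to the cluster, miR-210 in YR_S was lowest in replicate 1.

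Markers of other cell types in skin were summed in the same libraries. In bulk tissue, fewer cells of a type and less RNA per cell cannot be told apart. Leukocyte miRNAs (miR-142, miR-150, miR-155 and miR-223) summed to 1550, 969 and 1175 CPM in YR_S skin, against 1243, 1672 and 1070 CPM in WR_S. The range of this sum among the libraries was narrower than that of the cluster, and all of the listed families were above 0 in every library. That of miR-155 alone was wider than that of the cluster, from 27.5 CPM in YR_S replicate 2 to 170 CPM in WR_S replicate 2. Epidermal miRNAs summed to 35118, 23314 and 23182 CPM in YR_S skin, against 33069, 36673 and 26354 CPM in WR_S. Both sums were, like the cluster, highest in replicate 1 within YR_S and lowest in replicate 3 within WR_S. Of the 31 epidermal entries tested, 28 had a fitted fold change below 1 in YR_S, against 571 of all 1085 entries tested. Their median log2 fold change was -0.31, against -0.03. In edgeR's quasi-likelihood test 1 of the 31 had an unadjusted p below 0.05, against 10.4% of all entries. DESeq2 called 1 at an adjusted p below 0.05, against 3.32% of all entries, and edgeR and limma 0.

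The pigment cell list was represented by miR-204, as no entry was named miR-211, and summed to 39851, 36148 and 37983 CPM in YR_S skin, against 23430, 18657 and 19992 CPM in WR_S. Here the groups did not overlap, unlike in the cluster, and the same held for 17.2% of all entries tested. The sum was higher in YR_S, the group described as lacking melanocytes and holding fewer xanthophores. It is therefore not read here as a measure of pigment cells, and the reason for the difference was not tested. Of the 8 entries tested in this list, 0 had an adjusted p below 0.05 in edgeR's quasi-likelihood test or limma. DESeq2 called 5 of them at an adjusted p below 0.05, against 3.32% of all entries. In edgeR 7 were higher in YR_S at an unadjusted p below 0.05, against 10.4% of all entries in either direction. The entries tni-miR-204b_R+2_1ss11TC and hsa-miR-204-5p_R+2 held the same levels in every library, so they are not separate observations.

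Red cell miRNAs (miR-451 and miR-144) summed to 138, 272 and 106 CPM in YR_S skin, against 33.7, 158 and 309 CPM in WR_S. The endothelial miR-126 was at 5105, 10205 and 6750 CPM in YR_S skin, against 6862, 7015 and 7431 CPM in WR_S. Muscle miRNAs summed to 4951, 2197 and 2007 CPM in YR_S skin, against 2806, 6964 and 12616 CPM in WR_S. Of the 20 muscle entries tested, 10 had an unadjusted p below 0.05 in edgeR's quasi-likelihood test, against 10.4% of all entries, and 9 of these were lower in YR_S. DESeq2 called 2 of the 20 at an adjusted p below 0.05, against 3.32% of all entries, and edgeR and limma 0. The red cell, muscle and liver sums were thus highest among the WR_S libraries in replicate 3, where the cluster was lowest. The endothelial sum was also highest there, but only by little, at 7431 CPM against 6862 and 7015 CPM. Within YR_S the muscle sum was instead highest in replicate 1, where the cluster was also highest. The red cell, liver and endothelial sums were highest within YR_S in replicate 2, where the cluster was lowest of that group. The part of cell composition in the levels of miR-462 and miR-731 was not tested.

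**Figure D5:**
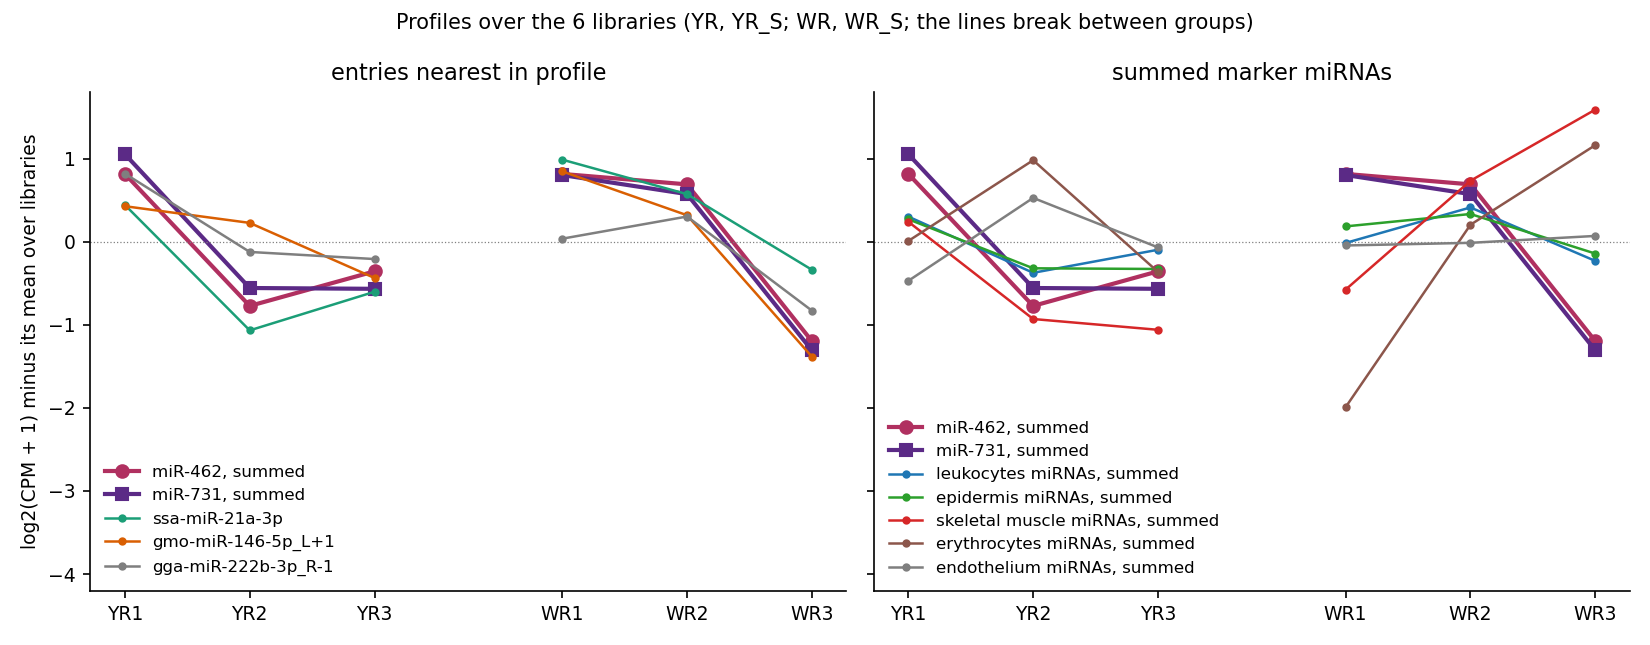
Profiles over the 6 libraries as log2(CPM + 1) minus the mean over libraries, for summed miR-462 and miR-731 beside the entries nearest in profile (left) and summed marker miRNAs (right). The lines only join the values of 1 profile within a group, and miR-462 and miR-731 lie together in every library. Within WR_S the muscle and red cell sums are highest where the cluster is lowest, and so, by little, is the endothelial sum. Within YR_S the muscle sum is instead highest where the cluster is highest.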

How the data were processed

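Small RNA libraries were made by the authors from total RNA of 3 YR_S and 3 WR_S dorsal skins and sequenced single-end. ACGT101-miR filtered the reads, and known miRNAs were matched to miRBase. The authors deposited an estimated count per entry and library, which was used here after rounding to whole numbers, and a normalized signal (the count times 1 factor per library, 0.732 to 2.34), which served for the limma alternatives. Their fold change and p-value columns were not used. The (mean) columns were not used, and the line naming no miRNA (1) held no value.

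Entries above 0 in at least 3 of 6 libraries were tested with edgeR's quasi-likelihood test (TMM, Benjamini-Hochberg over 1085 entries, two-sided). Arm sums replaced their entries in a second fit, and their CPM are sums of entry CPM. Standard errors are the log2 fold change over the square root of its F value. The common biological coefficient of variation was 0.469. Each library came from 1 skin, so p-values rest on the variation among 3 skins of a group. Strands were paired with RNAduplex. The fit was also run on simulated data, but the outcome is not given here and no result rests on it.

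Members and lists were chosen with earlier results of these data known. The entries named are all members, the 3 most abundant tested of the immune and of the miR-210 list, those sharing a member's seed, and the 3 nearest in profile. Alternatives were other scalings, filters, pseudocounts, DESeq2, collapsed sequences, the replicate number as a block and leaving out each library. Fits ran in R 4.3.3 with DESeq2 1.42.0, edgeR 4.0.16 and limma 3.58.1, permutation tests in scipy 1.17.1 (Python 3.11.15) and strand pairing in ViennaRNA 2.7.2.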

Additional observations from a re-analysis of the deposited data

How the results depend on the processing

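Under 18 alternative settings for the members and 17 for the arm sums, 0 fits gave an adjusted p below 0.05, and the smallest were 0.364 and 0.370. Leaving out each library in turn, the number of members at the study's thresholds ranged from 0 to 3, against 0 with all libraries, and that of all entries from 56 to 106, against 89. The log2 fold change ranged from -0.96 to -0.01 for miR-462-5p, -2.91 to -0.92 for miR-462-3p, -0.97 to 0.27 for miR-731-5p and -0.77 to 0.19 for miR-731-3p. Among members it ranged from -0.98 to 0.29 for miR-731-5p, -0.77 to 0.23 for miR-731-3p, -0.97 to 0.26 for ola-miR-462_R+5_1ss1GC and -0.43 to 0.44 for miR-462b-5p, so each of these changed sign. The group difference, YR_S minus WR_S, in the log2 ratio of the miR-731 arms ranged from -0.13 to 0.17. The group difference in the share of ssa-miR-731-3p in its arm ranged from -0.13 to 0.37 percentage points. For abu-miR-731-3p_L-1R+1_1ss22CA limma gave a log2 fold change of 0.0615 with a pseudocount of 1 and 1.02 with 0.1. The causes were not tested.

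The same-numbered libraries correlated at 0.133, 0.045 and 0.244 in their deviations from the group means, so the numbers were not taken as pairs, although each library correlated best with its own number. With the replicate number as a block, 0 members were called, ola-miR-462_R+5_1ss1GC had a log2 fold change of 0.0463, against -0.09, and 103 of all entries had an unadjusted p below 0.05, against 113. The block lowered the SE of the log2 fold change to 0.35 for miR-731-5p, against 0.63, and to 0.41 for miR-462a-5p, against 0.59. Of the members, only the abu variant had a larger SE with the block, 1.43 against 1.25. At the study's thresholds 89 entries passed, against 22 with a mean of at least 10 CPM, 54 when above 0 in all libraries, 56 with a pseudocount of 10 in limma and 56 without WR_S replicate 2. DESeq2 called 36 entries at an adjusted p below 0.05, none a member, against 0 in edgeR and limma. Depth limits the scarce variants, and 3 libraries per group left intervals of several fold in the fit without the block.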
